A study of Mus musculus with 6 samples.

Results

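The adipogenic transcription factors examined here are *Cebpb*, *Cebpd*, *Pparg*, *Cebpa*, *Ebf1*, *Zfp423*, *Zfp467*, *Klf15*, *Prdm16* and *Ppargc1a*, found by gene name as 10 of the 56980 rows of the deposited table. They were read in RNA-Seq of BM MSCs (bone marrow mesenchymal stem cells) from female mice that had all been ovariectomized (OVX) at 8 weeks of age, given antibiotics to deplete their own gut bacteria, and then given fecal microbiota transplantation (FMT) for 8 weeks. The 3 TranspCtrl samples (labelled FMT-Ctrl) came from recipients of feces from sedentary mice, and the 3 TranspExer samples (labelled FMT-Exer) from recipients of feces from exercised mice. The donors had also undergone OVX. The cells were flushed from femurs and tibias and cultured for 7 days, with no sorting described, so the comparison asks how the marrow cells that adhere in culture differ between the recipients. The columns of the table were given their groups by the sample names in the labels. The labels do not say whether each sample is 1 mouse or a pool, and p-values therefore measure the spread between these samples, which may be technical.

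Marrow stromal cells can form osteoblasts or adipocytes. In the adipocyte program, C/EBPβ and C/EBPδ are induced early and switch on PPARγ and C/EBPα, which then maintain each other and the genes of the fat cell. ZFP423, EBF1 and ZFP467 act around commitment, KLF15 acts later, and PRDM16 and PGC-1α (encoded by *Ppargc1a*) are coregulators known for the thermogenic program of brown and beige fat. Several of these factors also work in blood cells: C/EBPα in granulocyte precursors, EBF1 in B cells and PPARγ in macrophages.

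*Pparg* and *Cebpa*, the core pair of the program and the factors on which the results below turn, are shown here by the DNA before their transcription start. *Pparg* has 3 RefSeq starts in the GRCm38.p6 assembly, and a gene-level count adds up the transcripts of all of them, including the downstream, fat-enriched *Pparg2* form and the more widely used *Pparg1* form. The 250 bases before the first and the last of these starts and before the start of *Cebpa* are given 5′ to 3′, from RefSeq, with matches on either strand to the loose C/EBP site pattern TTNCNNAA in capitals.
Pparg, first start (chr6:115360894-115361143, plus strand): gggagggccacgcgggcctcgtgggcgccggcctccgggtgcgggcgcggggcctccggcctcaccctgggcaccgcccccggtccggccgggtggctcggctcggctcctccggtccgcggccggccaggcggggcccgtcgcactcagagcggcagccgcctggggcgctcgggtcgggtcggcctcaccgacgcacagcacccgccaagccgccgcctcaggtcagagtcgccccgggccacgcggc
Pparg, last start (chr6:115421816-115422065, plus strand): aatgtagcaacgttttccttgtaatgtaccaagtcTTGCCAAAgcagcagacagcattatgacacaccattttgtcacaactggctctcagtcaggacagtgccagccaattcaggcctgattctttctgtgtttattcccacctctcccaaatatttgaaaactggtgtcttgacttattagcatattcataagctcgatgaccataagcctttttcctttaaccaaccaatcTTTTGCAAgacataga
Cebpa (chr7:35119043-35119292, plus strand): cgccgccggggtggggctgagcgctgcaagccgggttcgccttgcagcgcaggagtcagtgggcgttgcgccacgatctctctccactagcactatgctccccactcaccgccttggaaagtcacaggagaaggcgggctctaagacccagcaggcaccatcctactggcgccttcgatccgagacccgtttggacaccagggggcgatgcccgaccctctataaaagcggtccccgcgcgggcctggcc

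The window of the first *Pparg* start is rich in G and C and holds no such match, and that of the last start holds 2. The window of *Cebpa* holds none. Windows of 300 bases, from 250 before to 50 after the start, were found for 9 of the 10 factors, and 13 such windows were searched on both strands. The strict C/EBP palindrome TTGCGCAA, which is a special case of the loose pattern, was in none of the 13 and in 0.183% of all 32851 windows. The loose pattern was in 6 of the 13 windows and in 40.7% of all windows. Among the 13, the last *Pparg* window and 1 of the *Zfp423* windows held 2 matches, and 13.6% of all windows held at least 2. The PPARγ repeat AGGTCANAGGTCA was in none of the 13 and in 0.04% of all windows, and the EBF motif TCCCNNGGGA was in none and in 0.904%. These are matches of letters in a short window and say nothing about binding.

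Total counts ranged from 17647682 to 21319228 per sample, so that 3 counts, the floor used here, equalled 0.139 to 0.174 CPM (counts scaled to library size and TMM factor, the unit used throughout). The first principal component, with 71.4% of the variance, separated the groups, and replicate 1 of TranspCtrl stood apart from its group. Its mean chi-square per gene was 48.6 to 53.8 against the other TranspCtrl samples, where those 2 differed from each other by 3.59 and the TranspExer samples by 4.28 to 7.43. Results that rest on it are given with and without it. The labelled cell type was checked against markers in summed CPM. Marrow stroma markers (15 genes, among them *Cxcl12*, *Lepr* and *Pdgfra*) summed to 15201, 23403 and 22474 in TranspCtrl replicates 1 to 3. In TranspExer they summed to 14567 to 15854. The groups overlapped through TranspCtrl replicate 1 only, and without it TranspCtrl lay wholly higher. Macrophage markers (9 genes) summed to 12488, 8214 and 8448 in TranspCtrl replicates 1 to 3 and to 6403 to 6875 in TranspExer. Both groups thus held transcripts of blood cells beside those of stroma. In bulk samples such as these, fewer cells of a type and less RNA per cell cannot be told apart.

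Of the 10 factors, 9 passed the filter on low counts. *Pparg*, *Cebpa* and *Zfp467* were higher in the TranspExer samples with an adjusted p-value under 0.05 (edgeR's quasi-likelihood test, p-values adjusted by Benjamini-Hochberg over 15190 genes), and none was lower. That is 3 of 9 rising against 16.6% of all tested genes, and 0 of 9 falling against 15.5%. Only *Pparg* also changed by at least 2-fold, against 3.5% of all tested genes that were DEGs higher in TranspExer, and no factor was a DEG lower in TranspExer, against 5.28%. The groups did not overlap in CPM for 4 factors, all higher in TranspExer (*Pparg*, *Cebpa*, *Zfp423* and *Zfp467*), against 27.2% of all tested genes, and no factor lay wholly lower, against 25.1%. The median log2 fold change was 0.45 over the 9 factors, the value of *Cebpb*, and -0.02 over all tested genes. Without TranspCtrl replicate 1 the median of the factors was 0.04, again the value of *Cebpb*. Without TranspCtrl replicate 1, 4 of the 9 factors rose (*Zfp423* in addition) and *Cebpd* fell, against 22.1% and 19.6% of all genes then tested.

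**Figure D1:**
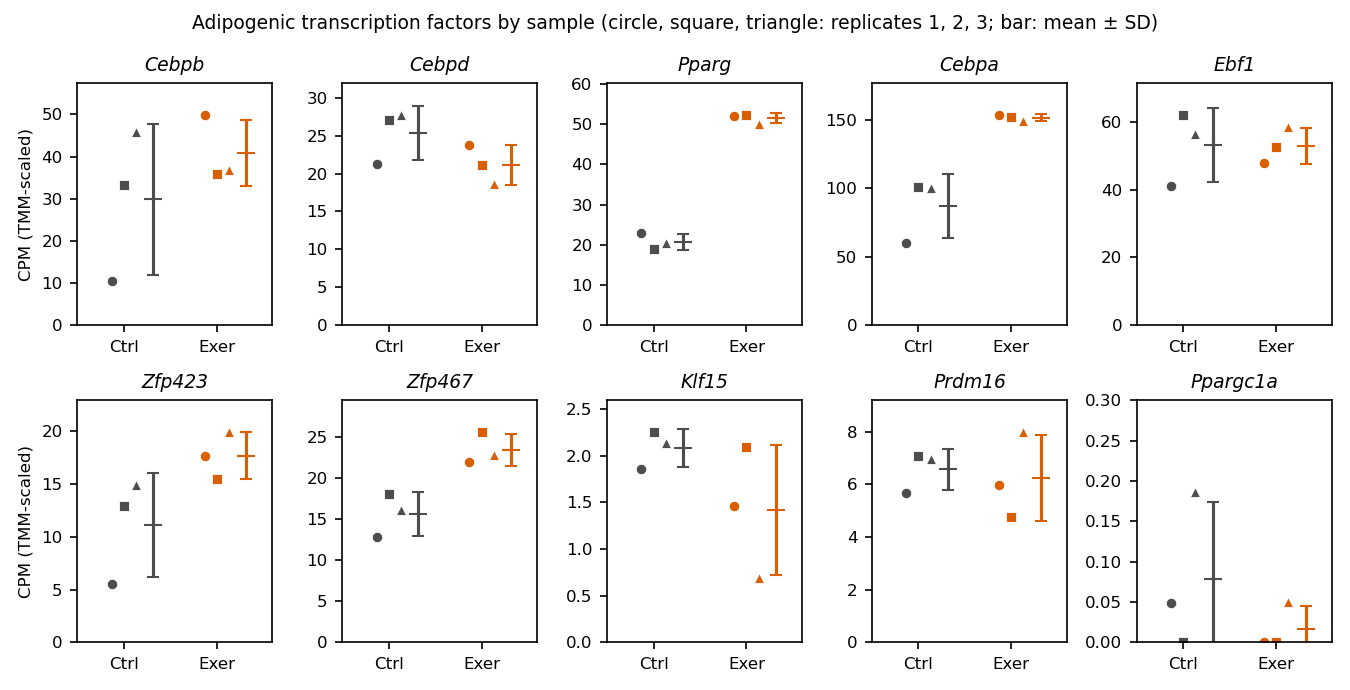
CPM (TMM-scaled, linear axis from 0, a scale for each gene) of the 10 factors in each sample, with TranspCtrl in grey and TranspExer in orange, replicates 1, 2 and 3 as circle, square and triangle, and the mean ± SD (n = 3) beside them. *Pparg* lies between 19.0 and 22.9 CPM in TranspCtrl and between 50.2 and 52.4 CPM in TranspExer, and TranspCtrl replicate 1 is the lowest of its group for 8 of the 9 tested factors, *Pparg* being the exception.

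The early factors did not pass the test. *Cebpb* (ENSMUSG00000056501, chr2:167688915-167690418, plus strand, GRCm38), a basic leucine zipper factor that also acts in inflammation and in macrophages, had 10.5, 33.3 and 45.8 CPM in TranspCtrl replicates 1 to 3 and 49.96, 35.9 and 36.8 CPM in TranspExer replicates 1 to 3. The groups overlapped, and TranspCtrl replicate 1 was lowest of all 6. The log2 fold change was 0.45 (standard error 0.43, 95% interval -0.54 to 1.44, adjusted p = 0.445 from edgeR), and without that sample it was 0.04 (adjusted p = 0.831). The difference between the group means thus rested on that library. Without TranspCtrl replicate 3 it was 0.90 (adjusted p = 0.148).

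*Cebpb* has a single exon that overlaps exons of *Peds1* on the opposite strand. The deposited counts of both genes had decimals, and their sum was whole to within 0.015 in 4 of 6 samples, so reads were divided between the pair. *Cebpb* held 13.8% of that sum in TranspCtrl replicate 1 and 23.6 to 36.9% in the other samples. *Peds1* alone, an enzyme of plasmalogen synthesis, rose by 0.65 on the log2 scale (adjusted p = 0.00141 from edgeR). Counted together, the pair rose by 0.60 on the log2 scale (standard error 0.17, adjusted p = 0.0281). How much of the pair's signal belonged to *Cebpb* cannot be told apart by these counts.

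*Cebpd* (ENSMUSG00000071637, chr16:15887286-15891031, plus strand), the partner of *Cebpb* in the first hours of adipocyte induction, had 21.2, 27.0 and 27.8 CPM in TranspCtrl and 23.7, 21.1 and 18.6 CPM in TranspExer. The ranges overlapped, because TranspCtrl replicate 1 lay among the TranspExer samples. The log2 fold change was -0.26 (standard error 0.14, 95% interval -0.58 to 0.05, adjusted p = 0.172), and without TranspCtrl replicate 1 it was -0.38 (adjusted p = 0.00769). *Cebpd* shares exonic sequence with *Spidr*, a DNA repair gene on the opposite strand. Their summed counts were whole in 6 of 6 samples, with a log2 fold change of -0.28 for the sum (adjusted p = 0.0425) and -0.30 for *Spidr* by itself (adjusted p = 0.0428). The *Spidr* call was lost without any 1 sample other than TranspCtrl replicate 1. It was also lost with the replicate number as a block (adjusted p = 0.0522) and with no filter on low counts (adjusted p = 0.0637, both edgeR). For this gene, too, the division of reads within the pair is uncertain.

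*Pparg*, the nuclear receptor without which fat cells do not form, had the largest log2 fold change among the 9 tested factors. *Pparg* (ENSMUSG00000000440, chr6:115360951-115490399, plus strand) had 22.9, 19.0 and 20.4 CPM in TranspCtrl and 52.0, 52.4 and 50.2 CPM in TranspExer, from counts of 370 to 470 and 903 to 1011. The groups did not overlap, and the samples within each lay close together. Mean CPM was 20.8 ± 1.99 (SD, n = 3) and 51.5 ± 1.21 (SD, n = 3), a 2.48-fold rise (log2 fold change 1.31, standard error 0.09, 95% interval 1.10 to 1.52, adjusted p = 7.64e-05 from edgeR). The lower bound of that interval lies above 2-fold, and a test against a fold of 2 within the model called this gene alone among the 9 (adjusted p = 0.0378). The value without TranspCtrl replicate 1 was 1.38, and the 14 other settings of the test for any change gave between 1.22 and 1.38.

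*Cebpa* rose as well, by less. *Cebpa* (ENSMUSG00000034957, chr7:35119293-35121928, plus strand), which partners PPARγ in the mature adipocyte and is also required for granulocyte precursors, had 60.3, 101 and 100 CPM in TranspCtrl and 154, 152 and 149 CPM in TranspExer. All TranspExer samples were above all TranspCtrl samples, with TranspCtrl replicate 1 far below the other two of its group. The rise was 1.74-fold (log2 fold change 0.80, standard error 0.18, 95% interval 0.38 to 1.22, adjusted p = 0.013 from edgeR). Without that replicate the log2 fold change was 0.59, with adjusted p = 1.59e-06. Without TranspExer replicate 1, 2 or 3 it was 0.79, 0.79 and 0.80, and the call passed only narrowly (adjusted p = 0.0486, 0.0472 and 0.0490 from edgeR). The antisense gene that overlaps *Cebpa* had 1 to 5 counts in each sample, against 1236 to 3008 for *Cebpa*.

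Markers of other cells also differed between the groups, in both directions. Markers of granulocytes and myeloid progenitors, in which *Cebpa* is also used, summed to 3253 to 4338 CPM in TranspCtrl and 5787 to 6038 CPM in TranspExer, with 6 of 11 higher and 1 lower by the test, and *Elane* and *Mpo*, which mark early granulocyte precursors, were both DEGs higher in TranspExer (log2 fold changes 2.16 and 2.47). Endothelial markers summed to 194 to 231 CPM and 594 to 643 CPM, with 8 of 8 higher. Macrophage markers were lower in sum, as given above, mainly through lysozyme (*Lyz2*, log2 fold change -1.14), while 3 of 9 rose and 2 fell. Without TranspExer replicate 3 the *Lyz2* difference no longer passed (-1.08, adjusted p = 0.0508 from edgeR). Of the 15 marrow stroma markers, 8 fell and 3 rose, with a median log2 fold change of -0.46. *Pdgfra*, a receptor of stromal progenitors, fell by 1.00 on the log2 scale, *Lepr*, the leptin receptor of perivascular stroma, by 0.47 and *Cxcl12*, its main chemokine, by 0.46. *Eng*, *Vcam1* and *Pdgfrb* were the 3 that rose, by 1.69, 0.65 and 0.39, and *Eng* (endoglin) is also a gene of endothelium. The calls of *Lepr* and *Pdgfrb* were each lost in some of the leave-outs (adjusted p = 0.106 to 0.152 in 4 and 0.0597 to 0.0939 in 3). The part of these cell types in the values of *Pparg* and *Cebpa* was not tested.

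The defining markers of the mature adipocyte were at or near 0. Its 6 marker genes summed to 0.82 to 1.02 CPM in TranspCtrl and 2.33 to 3.25 CPM in TranspExer. Leptin (*Lep*) and resistin (*Retn*) had 0 counts in all 6 samples, which allows up to 0.174 CPM, and *Cidec* and *Cfd* had at most 1 count. Adiponectin (*Adipoq*) had 16 to 18 counts in TranspCtrl and 16 to 22 in TranspExer, with a log2 fold change of 0.32 (adjusted p = 0.414). The difference in the summed level came mainly from *Plin1*, a lipid-droplet protein, counted 0, 0 and 3 times in the TranspCtrl samples and 25, 34 and 31 times in the TranspExer samples. *Plin1* was a DEG higher in TranspExer (log2 fold change 4.87, adjusted p = 0.00146 from edgeR), with TranspCtrl counts at the floor.

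The commitment factors differed from each other. *Ebf1* (ENSMUSG00000057098, chr11:44617317-45008091, plus strand), which marks reticular stroma and B cells, had 41.1, 62.2 and 56.3 CPM in TranspCtrl and 47.8, 52.6 and 58.5 CPM in TranspExer. The ranges overlapped fully. The log2 fold change was -0.01 (standard error 0.15, 95% interval -0.36 to 0.34, adjusted p = 0.976 from edgeR). A change of more than 0.36 on the log2 scale in either direction lay outside the interval. B cell markers summed to 1406 to 1768 CPM in TranspCtrl and 348 to 381 CPM in TranspExer over the same samples, with 5 of the 6 tested markers lower. The part of B cells in the *Ebf1* values was not tested.

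*Zfp467* (ENSMUSG00000068551, chr6:48427697-48445825, minus strand), a zinc finger factor known to favor the adipocyte over the osteoblast fate of stromal cells, had 12.8, 18.1 and 16.1 CPM in TranspCtrl and 21.9, 25.7 and 22.8 CPM in TranspExer. No TranspExer sample overlapped with TranspCtrl. It rose by 0.58 on the log2 scale ( standard error 0.14, 95% interval 0.26 to 0.90, adjusted p = 0.0159 from edgeR). The call was lost when TranspExer replicate 2 or replicate 3 was left out (0.51 with adjusted p = 0.0692 and 0.59 with adjusted p = 0.0537 on the log2 scale, edgeR).

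*Zfp423* (ENSMUSG00000045333, chr8:87661810-87959595, minus strand), a zinc finger factor that marks committed preadipocytes, had 5.51, 12.9 and 14.9 CPM in TranspCtrl and 17.6, 15.4 and 19.9 CPM in TranspExer. The groups did not overlap, but the nearest samples were 14.9 and 15.4 CPM, and TranspCtrl replicate 1 was again far below its group. The log2 fold change of 0.67 (standard error 0.31, 95% interval -0.04 to 1.38) did not pass the test (adjusted p = 0.132 from edgeR). Without TranspCtrl replicate 1 the log2 fold change was smaller, 0.35 (standard error 0.12), and passed (adjusted p = 0.0334). With no filter on low counts it also passed (log2 fold change 0.66, adjusted p = 0.042).

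*Klf15* and the thermogenic coregulators gave low values. *Klf15* (ENSMUSG00000030087, chr6:90462576-90475238, plus strand), a glucocorticoid-induced factor of late adipogenesis, was counted 38, 44 and 46 times in the TranspCtrl samples and 28, 36 and 14 times in the TranspExer samples. In CPM the groups overlapped through TranspExer replicate 2, and the log2 fold change was -0.57 (standard error 0.36, 95% interval -1.40 to 0.25, adjusted p = 0.251 from edgeR). It was -0.96 without TranspExer replicate 2 and -0.24 without TranspExer replicate 3 (adjusted p = 0.106 and 0.542). *Prdm16* (ENSMUSG00000039410, chr4:154316125-154636873, minus strand) had 5.66, 7.08 and 6.97 CPM in TranspCtrl and 5.96, 4.76 and 7.99 CPM in TranspExer. The ranges overlapped, and the log2 fold change was -0.07 (standard error 0.20, 95% interval -0.54 to 0.40, adjusted p = 0.812). *Ppargc1a* (ENSMUSG00000029167, chr5:51454250-51567726, minus strand), the inducer of mitochondrial biogenesis, was counted 1, 0 and 4 times in the TranspCtrl samples and 0, 0 and 1 times in the TranspExer samples. It was close to the floor in both groups and was not tested.

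**Figure D2:**
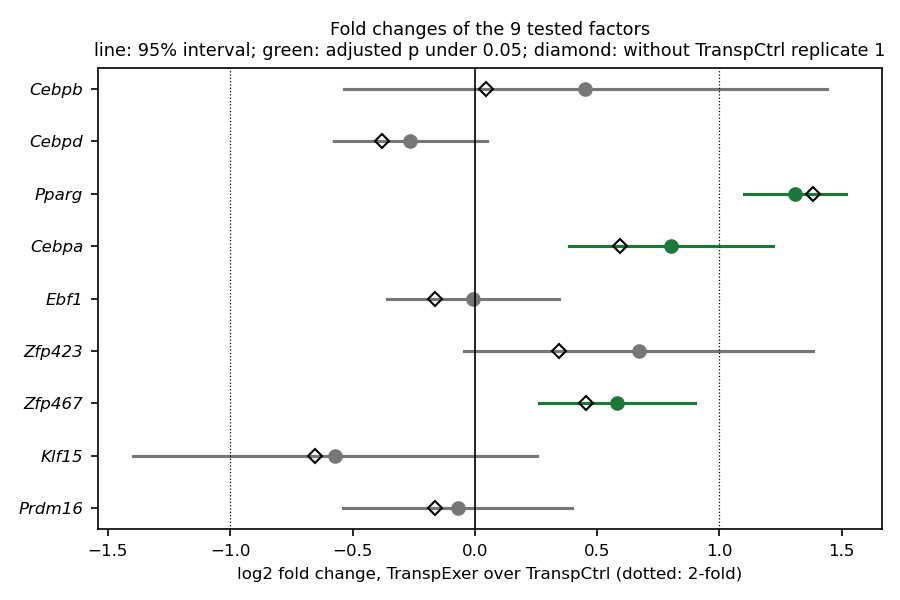
Log2 fold change (TranspExer over TranspCtrl) of the 9 tested factors with its 95% interval, in green where the adjusted p-value was under 0.05, with a diamond for the value without TranspCtrl replicate 1 and dotted lines at 2-fold. The interval of *Pparg* (1.10 to 1.52) lies beyond the 2-fold line, and the diamond of *Cebpb* (0.04) lies far from its circle (0.45).

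The order of the factors by level was compared as CPM per kilobase of the deposited gene length. In TranspCtrl the mean levels were 33.2 for *Cebpa*, 19.9 for *Cebpb*, 15.5 for *Ebf1* and 11.8 for *Pparg*, and the ranges of each neighboring pair among these overlapped. *Cebpd* (6.76), *Zfp467* (4.80), *Zfp423* (2.26), *Klf15* (0.929), *Prdm16* (0.763) and *Ppargc1a* (0.0121) followed, each range lying below that of the gene before it. In TranspExer *Cebpa* was again first at 57.8 CPM per kilobase, and *Pparg* was second at 29.2, with a range that overlapped that of *Cebpb* (27.2). *Ebf1* was next at 15.5, followed by *Zfp467* at 7.19, now above *Cebpd* at 5.64. *Zfp423* was at 3.60, *Prdm16* at 0.725 and *Klf15* at 0.632, where the ranges of the last 2 overlapped. The deposited length of *Ebf1*, 3422 bases, is well under the 9756 bases of its merged exons, so levels per length depend on the transcript model.

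Within the C/EBP family, the share of each gene in the summed CPM per kilobase of the 5 genes was compared. *Cebpa* took 36.9, 42.0 and 37.6% in TranspCtrl and 45.2, 48.9 and 49.0% in TranspExer, with no overlap. *Cebpd* took 9.10, 7.88 and 7.29% and then 4.88, 4.74 and 4.27%, and *Cebpg* took 23.6, 15.2 and 14.5% and then 10.3, 11.8 and 12.0%, both lower with no overlap. Shares of 1 sum are tied to each other, so a share can fall while the gene's own level does not, and neither *Cebpd* nor *Cebpg* passed the test on its level. *Cebpb* took 11.2 to 30.0% and 20.1 to 25.6%, which overlapped. The family members outside the 10 factors were *Cebpe*, a granulocyte factor that rose (log2 fold change 0.66, adjusted p = 0.00373 from edgeR), and *Cebpg*, a widely expressed partner of other leucine zipper proteins, which differed by -0.07 on the log2 scale (adjusted p = 0.469). With 3 against 3 samples an exact permutation test on such shares cannot give a two-sided p below 0.1, so they are given as values.

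**Figure D3:**
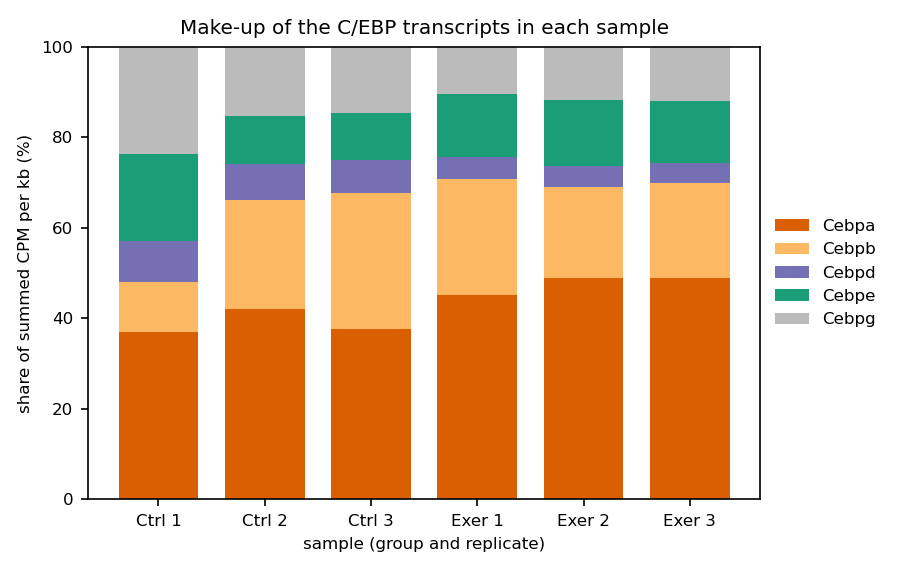
Share (%) of each of the 5 C/EBP genes in their summed CPM per kilobase, as 1 stacked bar per sample. The part of *Cebpa* is 36.9 to 42.0% in the TranspCtrl bars and 45.2 to 49.0% in the TranspExer bars, and TranspCtrl replicate 1 has the smallest part of *Cebpb*, 11.2%.

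The other families were read in the same way. *Pparg* took 45.4 to 55.5% of the PPAR family's summed CPM per kilobase in TranspCtrl and 63.2 to 68.9% in TranspExer, nearly all of the rest being *Ppard*, the widely expressed receptor, and *Ppara* had 0 to 7 counts. *Zfp423* took 41.0 to 57.4% of the sum with its antagonist *Zfp521* in TranspCtrl and 60.9 to 68.3% in TranspExer, while *Zfp521* itself did not pass the test (-0.18 on the log2 scale, adjusted p = 0.505 from edgeR). In the EBF family *Ebf1* took 52.2 to 56.8% and 50.9 to 53.1%, which overlapped, and *Ebf2* and *Ebf3*, which also promote adipogenesis, did not pass the test (0.22 and 0.14 on the log2 scale, adjusted p = 0.457 and 0.321). *Ppargc1b*, the paralog of *Ppargc1a*, made up at least 95.2% of their sum in each sample, with 41 to 58 counts in TranspCtrl and 32 to 46 in TranspExer (log2 fold change -0.26, adjusted p = 0.414).

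Other genes of the pathway were read from lists, whose counts are descriptions beside the shares for all tested genes given above (16.6% higher and 15.5% lower). Of 24 other pro-adipogenic factors and cofactors, 23 were tested, of which 4 rose and 2 fell, with a median log2 fold change of 0.14. *Nr1h3*, the LXRα receptor of cholesterol and lipid metabolism, was the only DEG, at 16.6 ± 1.21 CPM in TranspCtrl and 43.7 ± 2.03 CPM in TranspExer (SD, n = 3, log2 fold change 1.39, adjusted p = 6.18e-05 from edgeR). *Rxra*, the obligate partner of PPARγ, rose with a log2 fold change of 0.57 (adjusted p = 0.00451). *Egr2*, an early inducer of *Cebpb*, rose with a log2 fold change of 0.84, and *Stat5b* with 0.30. *Xbp1*, a factor of the unfolded protein response that is abundant in plasma cells, fell by 0.88 on the log2 scale, and *Zfp638*, a cofactor of C/EBP proteins, fell by 0.31. Without TranspCtrl replicate 1, 7 of these rose and 3 fell. *Zfp638* lost its call without TranspExer replicate 1 or 2, so that only *Xbp1* fell, and *Stat5b* lost it without TranspCtrl replicate 3 or TranspExer replicate 2 or 3 and when scaled by library size only (0.21, adjusted p = 0.0548).

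Of 23 genes known to restrain adipogenesis, 22 were tested, of which 7 rose and 3 fell, with a median of 0.18, so drivers and brakes both held genes that rose. *Gata2* and *Gata3*, which repress *Pparg* in preadipocytes, rose by 1.42 on the log2 scale (adjusted p = 0.000866 from edgeR) and by 1.17 (adjusted p = 0.00723). *Gata2* had 4.51 ± 1.04 CPM in TranspCtrl and 12.1 ± 0.25 CPM in TranspExer (SD, n = 3), and is also used in blood progenitors and endothelium, whose markers were higher in the same samples. *Irf4* fell by 2.30 and *Wnt10b*, a Wnt ligand that favors osteoblasts over adipocytes, by 1.49 on the log2 scale. *Irf4* is also a factor of plasma cells, and the B lineage markers given above were lower in the same samples. The part of these cell types in the values of *Gata2* and *Irf4* was not tested. *Ddit3*, the C/EBP homolog that dimerizes with and blocks C/EBPα and C/EBPβ, fell by 0.85 (adjusted p = 0.0184), counted 608, 327 and 397 times in the TranspCtrl samples and 233, 215 and 230 times in the TranspExer samples. The groups did not overlap. Its call was lost when any 1 of the TranspExer samples was left out (adjusted p = 0.0621 to 0.0791 from edgeR). Without TranspCtrl replicate 1, 9 of the brakes rose and 7 fell. Without TranspExer replicate 1 or 2, 5 rose and 2 fell, and without TranspExer replicate 3, 4 rose and 2 fell. Calls were fewer over all genes as well. With all samples 6739 of 15190 tested genes had an unadjusted p-value under 0.05 (edgeR). Without TranspExer replicate 1, 2 or 3 there were 5686 of 15584, 5503 of 15625 and 5498 of 15558.

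Of 26 adipocyte genes and known targets of PPARγ, 19 were tested, of which 11 rose and 1 fell, with a median log2 fold change of 0.52. *Cd36*, a fatty acid transporter and PPARγ target, rose from 363 ± 9.54 to 1496 ± 53.2 CPM (SD, n = 3, log2 fold change 2.04), *Lpl*, the lipase that takes up lipoprotein fat, from 805 ± 47.8 to 2660 ± 210.7 CPM (1.72), and *Plin2*, the coat protein of small lipid droplets, from 193 ± 11.5 to 590 ± 17.9 CPM (1.61). None of these 3 is confined to adipocytes, and macrophages also express them. *Plin1*, given above with its counts, was also a DEG higher in TranspExer. *Pnpla2*, the first lipase of triglyceride breakdown, rose with a log2 fold change of 1.08. *Scd1*, a desaturase of fatty acid synthesis, was the 1 gene that fell, by 1.10, and *Fasn* had 0.03 (adjusted p = 0.848). Without TranspCtrl replicate 1, 12 of 20 tested rose and 1 fell, whereas 7 of 20 rose without TranspExer replicate 1 and 7 of 20 without TranspExer replicate 2. *Cd36*, *Lpl*, *Plin2*, *Pnpla2* and *Scd1* kept their calls in each of these. An unadjusted p-value under 0.05 (edgeR) was also rarer over all tested genes. There were 5686 of 15584 such genes without TranspExer replicate 1 and 5503 of 15625 without TranspExer replicate 2, against 6739 of 15190 with all samples.

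Of 15 thermogenic genes, 9 were tested, of which 3 rose and 0 fell, with a median of 0.01. *Ucp1*, *Cidea*, *Cox8b* and *Zic1* had 0 counts in all 6 samples. *Dio2*, the enzyme that activates thyroid hormone, rose from 5.21 ± 0.453 to 13.0 ± 1.46 CPM (SD, n = 3, log2 fold change 1.32, adjusted p = 0.000404 from edgeR). *Mecom*, the close relative of *Prdm16*, rose with a log2 fold change of 0.86 (adjusted p = 0.00582), where *Prdm16* itself did not pass. The third that rose was *Esrra*, the estrogen-related receptor that works with PGC-1 proteins (0.43, adjusted p = 0.0282), and it lost its call without TranspCtrl replicate 2 or any 1 TranspExer sample, which left 2 rising. Without TranspExer replicate 2, *Cox7a1*, a subunit of cytochrome c oxidase, fell.

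**Figure D4:**
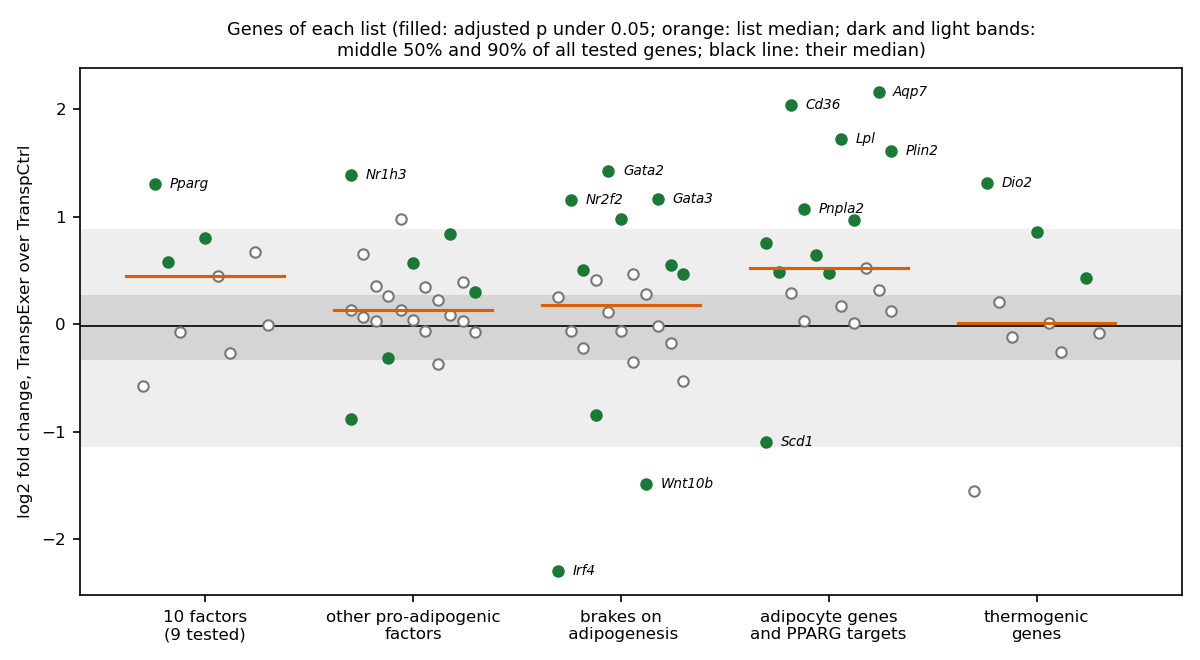
Log2 fold change (TranspExer over TranspCtrl) of the tested genes of each list, filled where the adjusted p-value was under 0.05, with list medians in orange and the middle 50% and 90% of all 15190 tested genes as dark and light bands. *Plin1*, whose TranspCtrl samples had 0, 0 and 3 counts, is left off the plot, and the medians are 0.45, 0.14, 0.18, 0.52 and 0.01 from left to right. The first, the value of *Cebpb*, was 0.04 without TranspCtrl replicate 1.

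The genes whose pattern over the 6 samples lay nearest to that of *Pparg* were found by the Euclidean distance between centred log2 CPM values. They were *Ppm1j* (distance 0.138), *Nr1h3* (0.157), *Edn1* (0.172) and *Lgals3* (0.179). Their log2 fold changes were 1.36, 1.39, 1.45 and 1.21, close to that of *Pparg*. *Lgals3* encodes galectin-3, which is abundant in macrophages, and had a mean of 846 CPM, while *Ppm1j* had 3.12 CPM. Nearest to *Cebpa* were *Rap2b* (0.0734), *Cpne2* (0.0926), *BC005537* (0.0928) and *Gm44950* (0.0934), with log2 fold changes of 0.84, 0.83, 0.74 and 0.82. In each of these genes, as in *Cebpa*, TranspCtrl replicate 1 had the lowest count, such as 1430 for *Rap2b* against 2248 and 2428. Choosing genes by their distance to *Cebpa* favors this. A likeness over 6 samples is a description and carries no test.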

How the data were processed

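RNA-Seq data of cultured BM MSCs covered 3 TranspCtrl and 3 TranspExer samples, grouped by the sample labels. The table that the authors deposited gives 1 estimated count (expected count) for each gene and sample, before any normalization, and a gene length, and 10.1 to 12.2% of its values are not whole. The submitters' processing notes name the mm10 build, and the aligner, the counting tool, its strand setting and the test for DEGs are not given in the sources used here. The labels name a stranded mRNA kit.

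Counts were rounded to whole numbers and tested with edgeR 4.0.16 in R 4.3.3 (filterByExpr, TMM normalization, quasi-likelihood test with group as the only term, Benjamini-Hochberg adjustment over 15190 genes). A gene rose or fell where its adjusted p-value was under 0.05, and a DEG also changed by at least 2-fold. Standard errors were computed as the fold change over the root of the F statistic, and 95% intervals from the t distribution of the fit. CPM used the TMM factors. Total counts per sample were 17647682 to 21319228, and floors and intervals on counts of 0 cover counting error only. In simulated data of the same comparison with 200 of 15190 genes changed by 1.5 on the log2 scale, edgeR recovered 92.5% of them as DEGs. Unchanged genes made up 2.6% of its DEGs (DESeq2 92% and 3.2%). The simulation set no library apart from its group, and its rates do not cover calls under 2-fold.

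Positions and overlaps came from GENCODE M21, which held 52073 of the 56980 gene identifiers, and promoter windows from RefSeq (GRCm38.p6). The members, lists, markers and tests were chosen with earlier results of these data known. Genes named are the 10 factors, in each list at most 4 DEGs, by smallest adjusted p-value, paralogs and antagonists of the factors, and the 4 nearest profiles to *Pparg* and to *Cebpa*. Genes outside this rule, namely the overlapping *Peds1* and *Spidr*, the marker genes, and *Rxra*, *Egr2*, *Stat5b*, *Xbp1*, *Zfp638*, *Ppard*, *Ppara*, *Adipoq*, *Lep*, *Retn*, *Cidec*, *Cfd*, *Plin1*, *Pnpla2*, *Fasn*, *Esrra*, *Cox7a1*, *Ucp1*, *Cidea*, *Cox8b* and *Zic1*, were chosen after their values were seen. The alternatives were DESeq2 1.42.0, other scalings and filters, the replicate number as a block, a fold of 2 tested in the model and leaving out each sample, and, added after the data were seen, *Cebpb* and *Cebpd* summed with the genes that overlap them and immunoglobulin genes left out. The comparison of protein sequences between paralogs that was planned was not run.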

Additional observations from a re-analysis of the deposited data

How the results depend on the processing

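*Pparg* and *Cebpa* stayed past the threshold in all 14 other settings of the test for any change (log2 fold changes 1.22 to 1.38 and 0.59 to 0.92), and *Zfp467* in 12 of 14. The highest adjusted p-value among these settings was 0.00163 for *Pparg* and 0.049 for *Cebpa* (edgeR). Tested against a fold of 2 within the model, *Pparg* passed and *Cebpa* and *Zfp467* did not. *Klf15* passed in none, and its value ranged from -0.96 to -0.24. Counting factors by the adjusted p-value with no fold threshold gave 3 higher in place of 1. The sign of *Ebf1* turned with the replicate number as a block (0.0086), without TranspCtrl replicate 2 (0.12) or 3 (0.04) and without TranspExer replicate 1 (0.06), and that of *Prdm16* without TranspExer replicate 2 (0.08), all within their errors. Leaving out 1 sample at a time gave -0.16 to 0.12 for *Ebf1* and -0.30 to 0.0812 for *Prdm16*. The same leave-outs gave 443 to 580 DEGs higher and 671 to 852 lower over all genes, 1 to 2 among the other pro-adipogenic factors higher (2 without TranspCtrl replicate 2), 0 to 1 among the adipocyte genes lower (0 without TranspCtrl replicate 2) and 0 to 1 among the thermogenic genes lower (1 without TranspExer replicate 2). The cause was not tested. The replicate numbers are not shown to pair the samples, since deviations of same-numbered samples correlated at 0.025, -0.0017 and 0.0419. The replicate block gave 519 DEGs higher and 766 lower and changed the call of no factor (adjusted p = 0.000328 for *Pparg*, 0.0112 for *Cebpa*, 0.00889 for *Zfp467* and 0.068 for *Zfp423* from edgeR). Scaling by library size moved the median of all genes by -0.09 on the log2 scale. At this depth *Ppargc1a*, at 4 counts or fewer, could not be compared.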
